A study of Schmidtea mediterranea with 4 samples.

Results

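Within RNA sequencing of planarian tail tissue, 53 well-expressed transcripts had lower levels after RNA interference (RNAi) against nsf than after EGFP RNAi, out of 36019 gene IDs in the deposited table. Levels are in TPM, the abundance of a transcript corrected for its length and scaled so that each library sums to 1000000. An ID was a candidate where its mean over the 4 libraries was at least 20 TPM, a floor that 7263 IDs reached, and where it was not among the 300 IDs with the highest mean in EGFP RNAi. That left 6963 IDs, called the level window here. A member is an ID of the window whose lower EGFP RNAi value was at least 15% above its higher nsf RNAi value; the ratio of those values is called the gap. The members were therefore chosen by the group difference itself, and their lower level in nsf RNAi describes how they were chosen and is not a finding.

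The samples were asexual Schmidtea mediterranea of strain CIW4, a freshwater flatworm that regrows missing body parts from a population of stem cells. Animals of both groups lived at 20 °C, went without food for 7 days or more and took 2 meals of double-stranded RNA (dsRNA), given every 3 days. Every library carries the mark 10 dpf, which no label explains. One group (n = 2 libraries) received dsRNA against nsf and the other (n = 2 libraries) received dsRNA against EGFP, a jellyfish fluorescent protein that planarians lack. The labels do not say how many animals went into a library or whether the libraries came from separate cultures, so the spread between replicates may be technical. The titles mark both replicate 2 libraries with -p, whose meaning is not given, so replicates 1 and 2 may not be samples of the same kind. The series concerns neuroendocrine control of planarian regeneration.

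The symbol nsf is commonly used for the N-ethylmaleimide-sensitive factor. This ATPase pulls SNARE complexes apart after a vesicle has fused with its target membrane. Recycled SNARE proteins are needed for further rounds of fusion, and so NSF serves transport through the Golgi, secretion by gland cells and the release of neurotransmitters and neuropeptides. Planarians have a brain, paired ventral nerve cords that run into the tail, and many secretory cells.

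The files do not pair IDs with gene names, and no annotation was used here. The members are therefore described by level, recovered length and count, and 2 of them by ID. Neither nsf itself nor markers of tail cell types could be looked up by ID. In bulk tissue, fewer cells of a type and less RNA per cell cannot be told apart. The whole numbers behind the TPM and the transcript lengths that divide them were recovered for 53 of 53 members and for the whole window, and they summed to between 7242709 and 10169069 counts per library. They are the counts behind the deposited values, which are batch-adjusted by the name of the table. They may therefore not be raw read counts.

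The members lay toward the lower levels of the window and their differences were mostly small. Their mean over the 4 libraries ran from 20.1 to 253 TPM with a median of 33.4 TPM, beside a median of 42.9 TPM over the window. At 50 TPM or more were 28.3% of the members, beside 42.1% of the window. The ratio of the EGFP RNAi mean to the nsf RNAi mean ran from 1.19 to 2.47 with a median of 1.27, so that the typical member was 21.1% lower in nsf RNAi. The ratio was under 1.3 in 36 members, from 1.3 to 1.5 in 13 and above 1.5 in 4. Together the members held 3028 TPM in EGFP RNAi replicate 1 and 3077 TPM in replicate 2, and 2326 and 2381 TPM in the respective nsf RNAi libraries. That is 0.303% and 0.308% of all TPM against 0.233% and 0.238%.

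**Figure D1:**
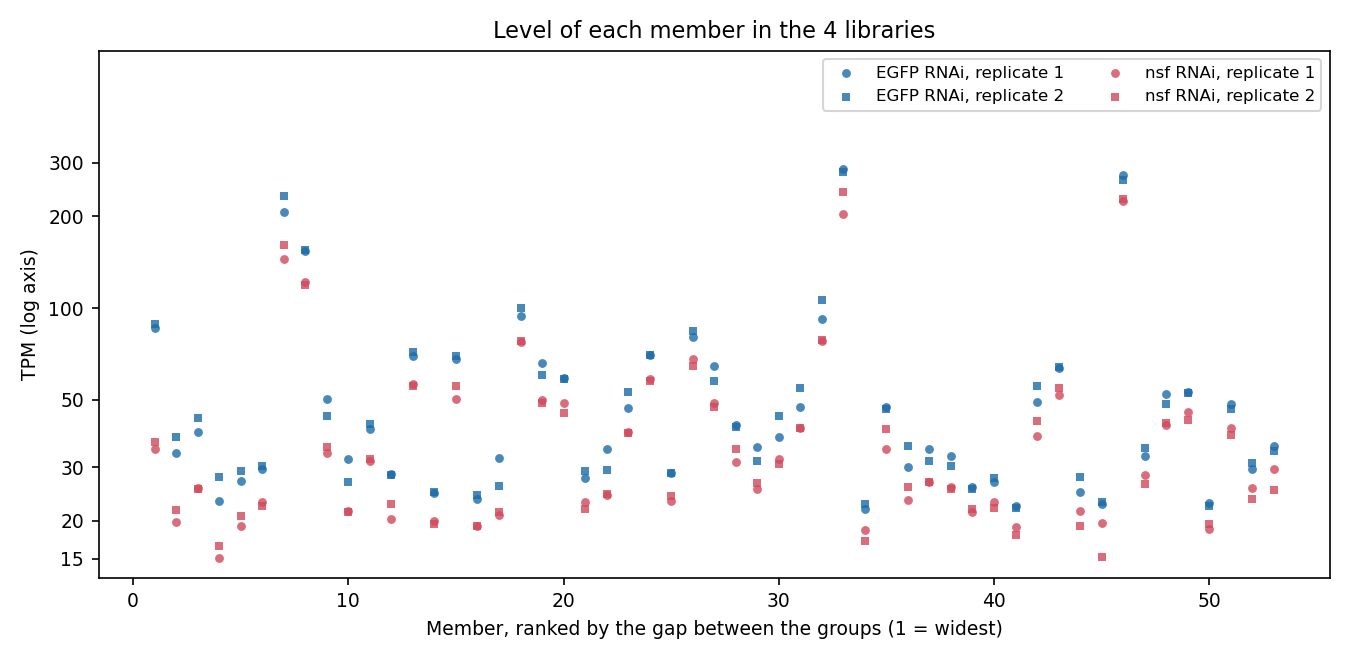
Level in TPM (log axis) of each of the 53 members in the 4 libraries, ordered by the gap between the groups; circles are replicate 1, squares replicate 2, blue EGFP RNAi and red nsf RNAi. The widest gap stands alone at 2.38-fold, and by the rule every blue point lies above both red points of its member.

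One member stood apart in size. SMED30019484 measured 86.2 TPM in EGFP RNAi replicate 1 and 88.6 TPM in replicate 2, and 34.5 and 36.3 TPM in the respective nsf RNAi libraries. Values of other members below follow the same order of libraries. Both libraries of a group lay close together, and the group means of 87.4 ± 1.67 and 35.4 ± 1.24 TPM (SD, n = 2 each) were far apart by comparison. It was 59.5% lower in nsf RNAi, while no other member was more than 41.6% lower. It was also the longest member at 2372 bases, with 1101 and 1566 counts in EGFP RNAi and 427 and 503 in nsf RNAi. Counting error alone left its fold, 2.47 from pooled counts, between 2.29 and 2.67 (exact 95% interval). This interval and those given below come from the same values by which the members were chosen and ranked, so they give the differences no support. They also leave out the spread between replicates, which went beyond counting error.

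The next gaps belonged to short transcripts with few counts. SMED30005967 was at 33.5 and 37.7 TPM in EGFP RNAi and at 19.9 and 21.7 TPM in nsf RNAi. Those levels rest on 54 and 84 counts against 31 and 38, over 299 bases, the shortest length among the members. Its pooled count fold of 1.72 had an exact 95% counting interval from 1.28 to 2.34, wider in proportion than that of SMED30019484. The member ranked 3 by gap, of 395 bases, was at 39.0 and 43.5 TPM in EGFP RNAi and at 25.7 and 25.5 TPM in nsf RNAi. The member ranked 4 by gap, of 621 bases, was at 23.3 and 27.9 TPM against 15.1 and 16.5 TPM. In both, the EGFP RNAi libraries differed more from each other than the nsf RNAi libraries did. After these 4 the widest gap was 1.301.

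The 4 members at 100 TPM or more had at least 287 counts in every library. The member ranked 7 by gap, of 380 bases, was at 206 and 234 TPM in EGFP RNAi and at 145 and 162 TPM in nsf RNAi, a ratio of means of 1.44. The member ranked 8 by gap, of 1413 bases, was at 154 and 155 TPM in EGFP RNAi and at 121 and 119 TPM in nsf RNAi. With 895 or more counts in every library it had the smallest counting error of all members, and its pooled count fold of 1.29 had an exact 95% counting interval from 1.21 to 1.37. The member of this class with the highest level, of 366 bases, was at 286 and 281 TPM against 204 and 240.1 TPM. Its nsf RNAi libraries differed from each other by more than the gap, at 1.18-fold against 1.17-fold. The last of the 4, of 436 bases, was at 273 and 263 TPM against 224 and 227 TPM, a ratio of means of 1.19. Here both groups were tight and the difference between them was small.

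Among the 11 members from 50 to 100 TPM, all but SMED30019484 had ratios of means between 1.198 and 1.303. One example, of 714 bases, was at 94.4 and 100.1 TPM in EGFP RNAi and at 77.6 and 77.8 TPM in nsf RNAi. Another, of 959 bases, was at 92.2 and 106 TPM in EGFP RNAi and at 78.1 and 78.5 TPM in nsf RNAi. In the second the EGFP RNAi libraries were nearly as far from each other as from the nsf RNAi libraries. The 14 members from 30 to 50 TPM had ratios from 1.19 to 1.61, and the 24 members from 20 to 30 TPM had ratios from 1.19 to 1.71. The lowest count of any library was 51 in the former class and 31 in the latter.

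Counting error was large beside the threshold of the rule. On the log2 scale the threshold of 15% is 0.20, and the standard error that counting alone gives to a member's fold ran from 0.04 to 0.21 with a median of 0.12. At least 1 library had under 100 counts for 19 of the 53 members. The member last inside the threshold, with a gap of 1.151, was at 35.3 and 34.0 TPM in EGFP RNAi and at 29.6 and 25.3 TPM in nsf RNAi. The next inside, with a gap of 1.153, was at 29.5 and 30.9 against 25.6 and 23.6 TPM. The first outside, with a gap of 1.149, was at 74.95 and 73.8 against 63.7 and 64.2 TPM, and the second, also with a gap of 1.149, at 27.4 and 29.2 against 23.1 and 23.8 TPM. IDs on either side of the threshold looked alike.

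Over the whole window, the rule found somewhat more IDs in the real grouping than in a grouping that crosses it. The 53 members are 0.761% of the window. When EGFP RNAi replicate 1 and nsf RNAi replicate 2 were set against the other two libraries, the same rule found 41 IDs (0.589%) higher in that pair and 44 (0.632%) lower. In the opposite direction of the real grouping, 97 IDs (1.39%) were higher after nsf RNAi. On the deposited scaling the members' share is thus near that of a grouping with no meaning in the study, and the count alone is not a result about nsf RNAi. The widest gaps of the crossed grouping were 1.41 and 1.53 in its 2 directions, against 2.38 for SMED30019484. Among IDs higher after nsf RNAi the widest gaps were 11.1 and 5.09. At a gap of at least 1.5, 3 of the 6963 window IDs were left as members. In the crossed grouping 0 and 1 IDs were left, and 2 were higher after nsf RNAi. The gap is the value by which the members were chosen and ranked, so these comparisons describe them and give them no support.

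**Figure D2:**
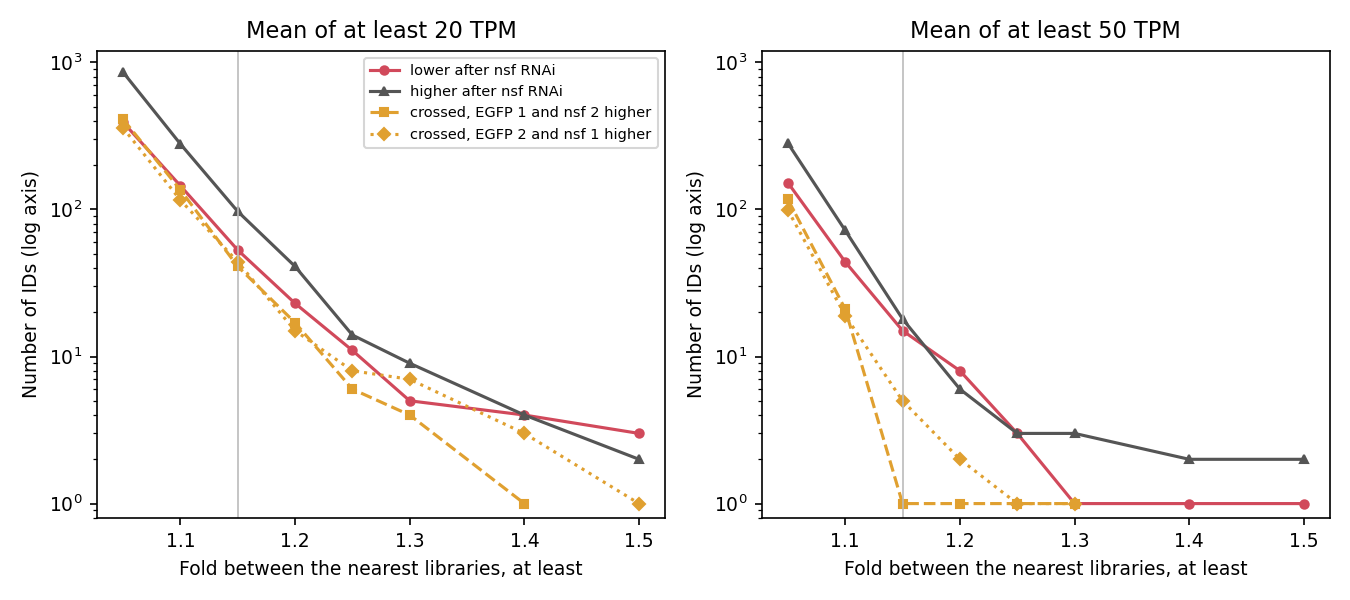
Number of IDs (log axis) that reach each fold between the nearest libraries, in the real grouping (red, lower after nsf RNAi; grey, higher) and in the crossed grouping (orange, both directions), for means of at least 20 TPM (left) and 50 TPM (right); the vertical line marks the threshold of 15%, and points at 0 are not drawn. At that line the left panel has 53 lower IDs beside 41 and 44 crossed ones, and the right panel has 15 beside 1 and 5.

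The distance to the crossed grouping was wider at higher levels. From 20 to 30 TPM, 24 IDs (1.19% of the window IDs of that class) were members. The 2 directions of the crossed grouping had 25 (1.24%) and 31 (1.53%) there, and 48 (2.38%) were higher after nsf RNAi. From 30 to 50 TPM, 14 (0.697%) were members, against 15 (0.747%) and 8 (0.398%) crossed and 31 (1.54%) higher. In neither class did the members outnumber both crossed directions. The window held 2934 IDs at 50 TPM or more, of which 15 (0.511%) were members, against 1 (0.0341%) and 5 (0.17%) in the 2 directions of the crossed grouping and 18 (0.613%) higher after nsf RNAi. At 100 TPM or more the window held 1271 IDs, of which 4 (0.315%) were members. Beside them stood 0 IDs in either direction of the crossed grouping and 6 (0.472%) higher after nsf RNAi. A limit on counts in place of level gave a smaller distance. The window held 5601 IDs that averaged 200 or more counts per library, of which 14 (0.25%) were members, against 11 (0.196%) and 10 (0.179%) in the crossed grouping and 49 (0.875%) higher after nsf RNAi. The limit on counts, the classes below 50 TPM and the class at 100 TPM or more were chosen after the values were seen. No test of the differences was made. By the name of the table a batch effect had been removed before deposit, and its part in these counts was not tested.

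The balance of lower and higher IDs depended on how the libraries were scaled. As deposited, the median log2 difference between nsf RNAi and EGFP RNAi over the window was 0.03, so the members were lower against a slightly raised background. When the libraries were rescaled until their median log2 ratios were 0, the rule found 98 lower IDs and 53 higher ones, in place of 53 and 97. The 98 held all 53 members. The crossed grouping had 36 and 43 IDs after rescaling. Which direction had more IDs therefore turned with the scaling. How far the count of lower IDs stood from the crossed grouping changed with it too, and no test of these differences was made.

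The members were short, a property that the rule did not use. Their recovered length had a median of 707 bases, from 299 to 2372, where the window had a median of 1449 bases. Of the 53, 42 (79.2%) were under 1000 bases, beside 29.8% of the window. By length, members made up 3.16% of window IDs under 500 bases, 1.66% from 500 to under 1000 bases, 0.357% from 1000 to under 2000 bases and 0.0479% of longer ones, where SMED30019484 was the 1 member. The difference in length was present at every level. In the class from 20 to 30 TPM the median was 817 bases for members and 1583 for the window, and at 100 TPM or more it was 408 and 1161 bases.

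IDs found by the crossed grouping were short too. Their median lengths were 712 and 814.5 bases in its 2 directions, and 78.0% and 70.5% of them were under 1000 bases. The 97 IDs higher after nsf RNAi were longer, with a median of 950 bases and 51.5% under 1000. At a given TPM a shorter transcript gives fewer counts, and the summed count over the 4 libraries had a median of 611 for members, 455 and 567 for the crossed grouping and 1658 for the window. Short length therefore went together with low counts in the members and in the crossed grouping alike, and its part in the members' differences was not tested.

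**Figure D3:**
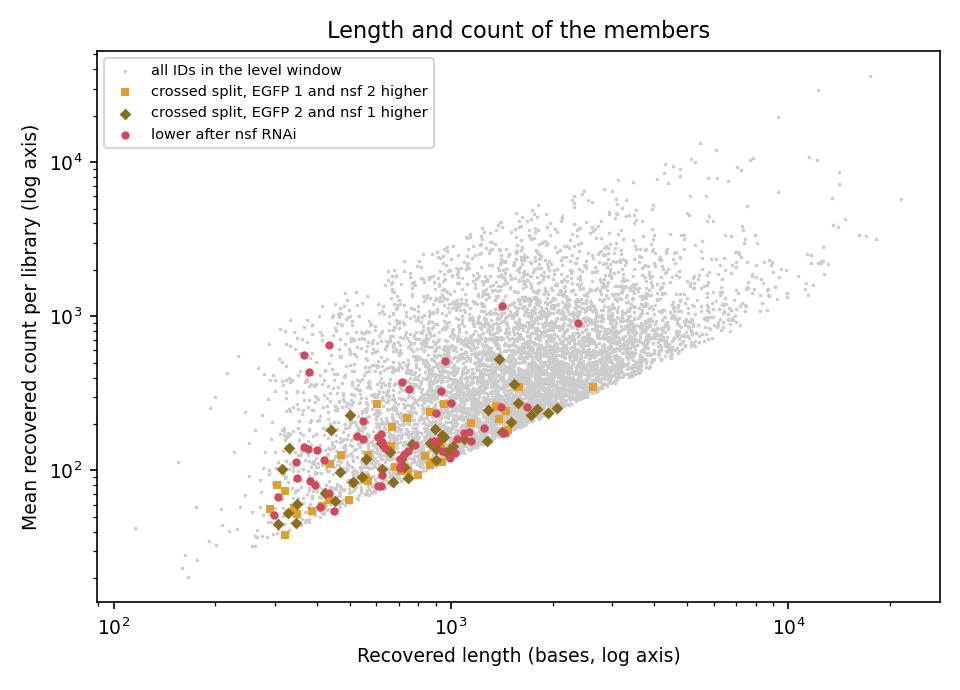
Recovered length in bases against mean recovered count per library (both log axes) for the window (grey), the members (red circles) and the IDs of the crossed grouping (orange squares and brown diamonds). Members and crossed IDs lie mostly at the short, low-count end, and SMED30019484 is the red point farthest right, at 2372 bases.

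Replicates of the members differed from each other about as much as those of other transcripts did. The rule compares the nearest libraries of the 2 groups and so works against a wide spread within a group. The spread of the members is therefore not independent of how they were chosen. The larger replicate was 1.047 times the smaller at the median in EGFP RNAi and 1.048 times in nsf RNAi, beside 1.052 and 1.054 over the window. The widest ratio within nsf RNAi, 1.29, came from a member of 449 bases at 22.7 and 23.0 TPM in EGFP RNAi and at 19.6 and 15.2 TPM in nsf RNAi. The order of the replicates, which the rule leaves free, showed no common pattern. Replicate 2 was the higher one in 30 members in EGFP RNAi and in 27 in nsf RNAi. Both groups had the same order in 24 members (45.3%), beside 39.9% of the window.

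**Figure D4:**
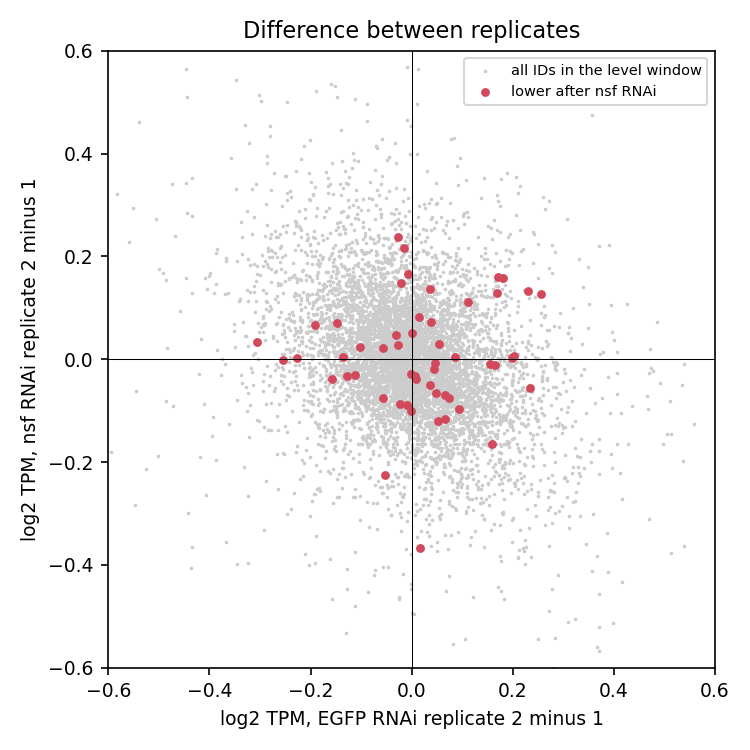
Difference in log2 TPM between replicates 2 and 1 in EGFP RNAi (horizontal) and in nsf RNAi (vertical) for the window (grey) and the members (red); 22 window IDs lie outside the axes, which end at 0.6 in each direction. The members fall in all 4 quadrants, with 24 of 53 in the lower left and upper right ones.

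A test across the whole table called 1 of the 53 members. limma on log2(TPM + 1) over 19555 IDs, with Benjamini-Hochberg adjustment over all of them, called 1 ID (0.00511%) lower after nsf RNAi at an adjusted p under 0.05, and that ID was SMED30019484. Its log2 difference was -1.28 ± 0.07 (standard error; limma adjusted p = 0.0431). For the other 52 members the log2 difference ran from -0.75 to -0.23 and the limma adjusted p from 0.369 to 0.772. The median log2 difference was -0.33 over the members and 0.03 over all IDs tested. Since the rule used the same contrast, these values describe the members and give them no support. No ID was called higher after nsf RNAi by this fit (0 of 19555), while 766 (3.92%) were higher and 499 (2.55%) lower at an unadjusted p under 0.05, and voom called 8 higher. In limma without the block, 778 IDs (3.98%) were lower and 1392 (7.12%) higher after nsf RNAi at an unadjusted p under 0.05, and the crossed grouping, fitted the same way, had 0 called IDs and 1489 (7.61%) at an unadjusted p under 0.05 in both directions together. With all 4 libraries, the call of SMED30019484 was lost when the pseudocount was 0.1 (limma adjusted p = 0.0519), with a filter of 5 TPM (limma adjusted p = 0.0859) and when the trend was dropped (limma adjusted p = 0.8), while its log2 difference was -1.30, -1.28 and -1.28. Fits that leave out a library also drop the block. With the block dropped and all 4 libraries kept, 1 member was called, SMED30019484 (limma adjusted p = 0.00893). Without nsf RNAi replicate 1 or 2 no member was called, and SMED30019484 had limma adjusted p of 0.135 and 0.222 and log2 differences of -1.25 and -1.32. Without EGFP RNAi replicate 1 or 2, 6 and 5 members were called. In each fit that leaves out a library, 1 group has a lone library, whose spread is taken from the other group.

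A fit that weights values by recovered counts called 3 members. limma's voom, which weights each value by the precision its count allows and was chosen after the data were seen, called 19 of 16764 IDs (0.113%) lower after nsf RNAi, 3 of them members. The 3 were SMED30019484 with a voom log2 difference of -1.32 ± 0.07 (standard error; adjusted p = 5.51e-09), the member ranked 7 by gap at -0.54 ± 0.09 (adjusted p = 0.00845) and the member ranked 8 by gap at -0.38 ± 0.06 (adjusted p = 0.00675). SMED30005967, ranked 2 by gap, was not called by voom (-0.78 ± 0.24, adjusted p = 0.513). The rule used the same contrast, so the voom values too describe the members and give them no support.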

How the data were processed

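RNA from 4 tail libraries was sequenced. The deposited values are TPM in 1 table from which the authors had removed a batch effect, per the name of the table. The submitters' processing notes list SAMtools. Not given in the sources used here: how and between which libraries the batch was removed, the aligner, the counter, the annotation and the genome build. Each library sums to 1000000 TPM, and 24844 to 25355 IDs per library were above 0.

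The members and lists were chosen with earlier results of these data known. Named IDs are the 2 members with the widest gap; others are given by rank or length. Gene lists needed gene names and were not run. Whole counts and lengths were recovered from the TPM (whole within 0.01, Python 3.11.15, numpy 2.4.6) for 26187 of 26187 IDs above 0 in 2 or more libraries. A recovered count and length may both be smaller than the true ones by a common divisor. Other errors of the recovery were examined only on simulated data and with a wider tolerance. Exact 95% intervals are conditional binomial (Clopper-Pearson) and cover counting error only. Recovered counts of replicates differed beyond sampling noise (chi-square over its degrees of freedom, 1.87 in EGFP RNAi and 1.43 in nsf RNAi).

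limma 3.58.1 (R 4.3.3) was fitted to log2(TPM + 1) for IDs averaging 1 TPM or more, with an abundance trend and the replicate number as a block, because taking out a batch uses up 1 residual degree of freedom; that the batch was the replicate number is an assumption. Fold changes on this scale understate those of low IDs. The fit, the recovery and the rule were tested on simulated data. The planted changes were larger than those of every member but SMED30019484, so the fit and the rule were not tested at the size of the other differences. Alternatives were other pseudocounts, filters, scalings, thresholds of the rule, no block, and leaving out each library.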

Additional observations from a re-analysis of the deposited data

How the results depend on the processing

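The number of members, 53 as reported, was set by the thresholds of the rule. It was 137 at a floor of 10 TPM, 838 at 1 TPM and 15 at 50 TPM, 145 at a threshold of 10% and 11 at 25%, 98 after rescaling, 14 among IDs averaging 200 counts or more and still 53 with the most abundant IDs kept. With 1 library left out it ran from 173 to 193, since the rule then compares fewer libraries; 49 of the 53 were still found without either EGFP RNAi library and all 53 without either nsf RNAi library. The crossed grouping (EGFP RNAi replicate 1 and nsf RNAi replicate 2 higher), 41 as reported, gave 151 at 10 TPM, 1059 at 1 TPM, 1 at 50 TPM, 136 at 10%, 6 at 25% and 11 at 200 counts. At a floor of 10 TPM that direction of the crossed grouping thus held more IDs than the 137 of the members' direction, and its other direction held 128. At 1 TPM both crossed directions, with 1059 and 942 IDs, held more than the 838 of the members' direction.

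In limma the IDs called lower, 1 as reported, were 0 with 0.1 as the pseudocount, 0 with a filter of 5 TPM and 0 when the trend was dropped, and the members called were 0 in each of these 3 fits; the cause was not tested. Without the replicate block 1 ID was called lower, 1 member was called and 2 IDs were called higher. The IDs called higher, 0 as reported, were 1 with no filter and 1 with quantile normalization. Leaving out 1 library, without the block, gave 0 to 18 lower, 0 to 37 higher and 0 to 6 members called. Differences between replicates 1 and 2 in the 2 groups correlated at -0.42 across 19555 IDs, which does not show that the numbers pair the libraries, and a crossed replicate block called 4 lower, 27 higher and 2 members. Voom called 19 lower, 8 higher and 3 members. Both were added once the data had been seen. The median log2 difference of the members stayed between -0.37 and -0.32 under the 13 alternatives. SMED30019484 kept its direction in all 13 and its call in 8, and SMED30005967 kept its direction in all 13 and was called in 2, when either EGFP RNAi library was left out. A tolerance of 0.05 changed no recovered length among the members, and members at or over their median level had a median length of 550 bases against 707 for all.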
